A study of Homo sapiens with 16 samples.

Results

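The hypoxia-inducible genes described here are HIF1A, VEGFA, CA9, ADM, EGLN1, EGLN3, NDRG1, P4HA1 and BNIP3. They were chosen by name, and every probe listed under one of these symbols was taken, which gave 9 genes and 11 probes of 18631 gene symbols and 24526 probes in the table. They were measured in SUM-225 (SUM225) cells, a breast cancer-derived line in which the HER2 receptor is amplified and over expressed. By the labels the cells grew in Ham's F-12 medium with fetal bovine serum, insulin and hydrocortisone, while the study's methods give this line a serum-free medium with no insulin, so the medium is not settled. They received 1 µM CP724,714, a small molecule that inhibits the HER2 kinase. RNA was taken from parallel cultures every 3 h from 0 h to 45 h, and each of the 16 time points was measured on 1 Illumina bead array, with no replicate. No untreated course was analysed here, so the time in inhibitor and the time in culture cannot be told apart, and 1 line at 1 dose was measured. For the study's other cell lines the methods give a change of medium at the start of treatment, and if it was also made here, its effect and that of the inhibitor cannot be told apart either.

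Hypoxia-inducible factor 1 (HIF-1) is the transcription factor through which cells answer low oxygen. Its alpha subunit, encoded by HIF1A, is made all the time, but in oxygen the EGLN enzymes (also called PHD) hydroxylate it on prolines, and the VHL protein then binds it and has it degraded. When oxygen is low the alpha subunit escapes, pairs with ARNT and binds short DNA elements at genes for blood vessel growth, glucose use, acid balance, collagen modification and mitochondrial turnover. HER2 signalling through the PI3K and mTOR kinases is known to raise HIF-1 alpha synthesis in breast cancer cells at normal oxygen. The arrays measured RNA, and neither the HIF-1 alpha protein nor its stability was measured. RNA came from whole cultures, so a change in some of the cells and a change in all of them cannot be told apart.

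The core letters that HIF-1 binds, ACGTG or GCGTG, are shown in the start regions of 5 of the genes. They are shown to set the shared letters beside the range of outcomes below, a rise (ADM), an early dip (EGLN1), a curved course (P4HA1), no course found (BNIP3) and detection on a single array (CA9). The stretches are 80 bases each, from the RefSeq promoter sequences of assembly GRCh38.p14, read 5′ to 3′ on the strand of the gene, and capitals mark a match on either strand.
EGLN1, chr1:231422288-231422367, minus strand: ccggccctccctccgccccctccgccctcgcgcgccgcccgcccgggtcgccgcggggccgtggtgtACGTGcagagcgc
CA9, chr9:35673848-35673927, plus strand: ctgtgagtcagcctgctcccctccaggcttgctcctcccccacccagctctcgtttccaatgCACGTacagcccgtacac
P4HA1, chr10:73096911-73096990, minus strand: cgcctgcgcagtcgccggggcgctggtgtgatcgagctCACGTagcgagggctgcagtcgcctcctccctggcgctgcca
BNIP3, chr10:131982005-131982084, minus strand: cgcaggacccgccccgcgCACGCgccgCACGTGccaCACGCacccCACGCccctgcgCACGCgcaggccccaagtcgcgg
ADM, chr11:10304934-10305013, plus strand: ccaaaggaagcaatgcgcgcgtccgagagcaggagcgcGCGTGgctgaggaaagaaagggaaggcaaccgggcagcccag
Of the 9 genes, 7 matched the promoter table by symbol, and VEGFA and NDRG1 did not. Within the window from 250 bases before to 50 bases after the start, ACGTG on either strand was present for 4 of the 7 (EGLN1, CA9, P4HA1 and BNIP3), against 21.4% of all 35116 promoters. With GCGTG counted as well, 6 of the 7 had a match, against 48.4% of all promoters. HIF1A and ADM matched through GCGTG, and EGLN3 had no match in this window. BNIP3 had 6 matches, of which a pair overlap because the palindrome CACGTG reads as ACGTG on both strands. These are matches of letters, and binding was not measured.

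The epithelial and luminal markers KRT8, KRT18, KRT19, CDH1 and TACSTD1 (EPCAM) and the HER2 amplicon genes ERBB2, GRB7 and STARD3 were detected on all 16 arrays, with log2 values from 8.38 to 16.13. Of the fibroblast, leukocyte and endothelial markers, COL3A1, PDGFRB and PTPRC were detected on 0 arrays, CD3E and CDH5 on 1 each, KDR on 4, and COL1A1 and COL1A2 on 5 each, while CD14 (11.03 to 12.11) and PECAM1 (6.94 to 8.15) were detected on all 16. Median signal ranged from 242 at 6 h to 384 at 27 h, and 57.5% to 61.5% of the probes were detected on an array. Several probes below shifted in level between runs of 4 neighbouring arrays (0 to 9, 12 to 21, 24 to 33 and 36 to 45 h), which were noticed in the data. The labels name no batch, and over these runs, called 12 h sets below, the array set and the time cannot be told apart.

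All values of a gene below are background-corrected, quantile-normalized signals on the log2 scale, and a change of 1 unit is a doubling. A probe was called detected on an array at a detection p under 0.05. Of the 11 probes, 10 were detected on at least 3 arrays and tested with a smooth (cubic) course in hours, and the probe of CA9 was not. The error of each change is the standard error of that fitted course, since no time point had a replicate, and the p-values are limma's, adjusted over all 16110 probes tested. A cubic course was found for 6 of the 10 probes, against 51.3% of all probes tested. A linear rise was found for 3 (ADM, EGLN1 and NDRG1), against 26% of all probes, and a linear fall for 3 (EGLN3, one probe of HIF1A and one of P4HA1), against 21.7%. The course of 3 probes (ADM, VEGFA and one of P4HA1) was curved, that is, the terms beyond a straight line passed their own test, against 19.3% of all probes. The linear calls of the hypoxia-inducible genes over 45 h thus took no common direction, and their shares of calls were near those of all probes. Over the first hours most of the tested probes were lower than at 0 h, as given below.

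**Figure D1:**
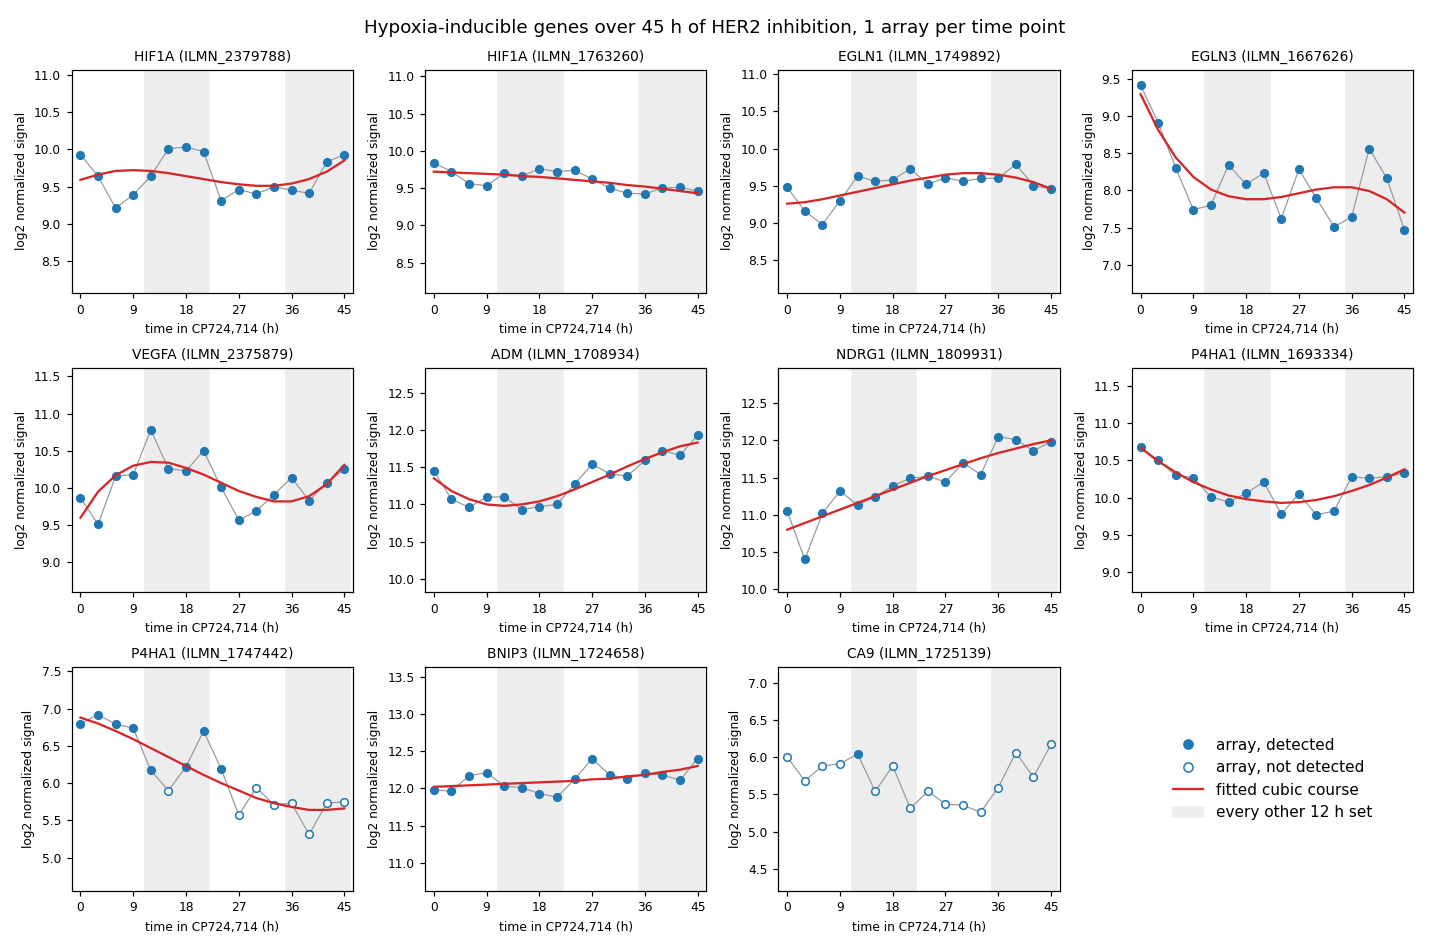
Log2 normalized signal (y axis, each panel spanning the same 3 log2 units around the probe's median) against time in CP724,714 in hours (x axis) for the 11 probes, with 1 point per array, filled where the probe was detected, and the fitted cubic course in red for the 10 tested probes. Grey bands mark every other 12 h set. NDRG1 (by 0.93), ADM (0.48), BNIP3 (0.41) and VEGFA (0.37) end above their start. EGLN3 drops over the first 9 h, VEGFA peaks at 12 h, and CA9 stays at background.

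NDRG1, a stress-responsive gene of the N-myc downstream regulated family, rose most. Its probe (ILMN_1809931) stood at 11.05 at 0 h, dipped to its lowest value of 10.40 at 3 h and was back at 11.02 at 6 h and 11.32 at 9 h. From 12 h to 21 h it climbed from 11.13 to 11.49, from 24 h to 33 h it lay between 11.44 and 11.70, and from 36 h to 45 h it lay between 11.86 and 12.05. Every array of the last set was therefore above every earlier array, and the lowest and highest values were 3.15-fold apart. The linear change over 45 h was 1.23 ± 0.15 log2 units (SE, adjusted p = 1.35e-06). It passed the threshold whichever array was left out, with changes from 1.05 to 1.33. The test of curvature was not passed (adjusted p = 0.899), although the 3 h array lay 0.65 below the 0 h array. Of the 10 tested probes only NDRG1 was higher at 45 h than at 0 h by 1.7-fold or more (1.91-fold), as were 13.7% of all probes tested.

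ADM encodes adrenomedullin, a secreted peptide that widens vessels. Its probe (ILMN_1708934) fell first and rose later. On the first 4 arrays it read 11.45, 11.07, 10.96 and 11.10, and from 12 to 21 h it lay between 10.93 and 11.10, with the lowest value at 15 h. The arrays of 24 to 33 h averaged 11.40 ± 0.11 (SD, n = 4 arrays) and those of 36 to 45 h averaged 11.73 ± 0.14, both above the mean of the first set, 11.14 ± 0.21. The highest value, 11.93 at 45 h, was 1.39-fold above 0 h, and the range was 2-fold. The linear change over 45 h was 0.75 ± 0.11 (adjusted p = 8e-06), and the course was curved (adjusted p = 0.00529). The curvature rested on the first array, since without 0 h its adjusted p was 0.113, while the linear rise was then 0.97. When the fit allowed a step between 21 and 24 h, the rise was 0.33 (adjusted p = 0.399). Over the 16 arrays ADM and NDRG1 had a Pearson r of 0.70, the highest among the 28 pairs of tested genes. EGLN3 and NDRG1 had the lowest, at -0.53. These correlations share the arrays and the trend with time and are given as a description.

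EGLN1 and EGLN3 are the oxygen sensors among the genes, and both are also known targets of HIF-1. EGLN3 (PHD3, ILMN_1667626) had the widest course of all 11 probes. On the first 4 arrays, 0 to 9 h, it read 9.41, 8.91, 8.30 and 7.74, a fall at every step to a level 3.17-fold below the first array. Afterwards it moved between 7.47 and 8.56 without returning to the first levels. In this later range the arrays at 15 h (8.34), 27 h (8.28) and 39 h (8.56) were each higher than both neighbours. Each of these is the second array of a 12 h set, and 4.54% of all probes tested had higher values at the same 3 times. The step from 36 h to 39 h was 0.93, and that from 42 h to 45 h was -0.68. The 45 h array was the lowest, at 0.262 of the 0 h value. EGLN3 was thus lower at 45 h than at 0 h by more than 1.7-fold, as were 13.5% of all probes by their normalized values. The one other tested probe past that fold by its normalized values, of P4HA1, was not detected at 45 h and has only the bound given with it below.

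The linear change of EGLN3 over 45 h was -0.91 ± 0.26 (adjusted p = 0.00801), and the residual SD around its course was 0.38 log2 units, against a median of 0.19 over all probes. The call rested on the first array. Without it the change was -0.55 (adjusted p = 0.14), and the test of the whole course had an adjusted p of 0.174 in place of 0.00452. When the fit allowed a step between 21 and 24 h, the linear change was 0.15 (adjusted p = 0.907). The early fall continued after the first interval, with steps of -0.61 from 3 to 6 h and -0.56 from 6 to 9 h.

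EGLN1 (PHD2, ILMN_1749892), the main prolyl hydroxylase of HIF-1 alpha in most cells, fell from 9.48 at 0 h to 9.16 at 3 h and 8.98 at 6 h. It was at 9.30 at 9 h and at 9.63 at 12 h, and then lay between 9.46 and 9.79 on all arrays to 45 h, with its highest value at 39 h. The first set averaged 9.23 ± 0.21 (SD, n = 4 arrays), and the later sets averaged 9.63, 9.57 and 9.59, so EGLN1 dipped by 1.41-fold at 6 h and otherwise ended at its starting level (0.985 of 0 h at 45 h). The fitted linear change was 0.34 ± 0.14 (adjusted p = 0.0452). This call was lost on leaving out any one of 9 arrays (3, 6, 9, 24, 27, 30, 33, 36 and 39 h), with adjusted p up to 0.148 without the 3 h array, and also with median scaling (adjusted p = 0.0578), cyclic loess (0.122) or no filter on dim probes (0.0654). It was also lost with a step between 21 and 24 h, where the linear change was 0.92 (limma, adjusted p = 0.0501). The test of the whole course did not pass the threshold (adjusted p = 0.0605), except without the 0 h (0.00731) or 12 h (0.0376) array.

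VEGFA encodes vascular endothelial growth factor A, the ligand that drives the sprouting of blood vessels. Its probe (ILMN_2375879) rose early and fell back. It stood at 9.87 at 0 h, was lowest at 3 h (9.51), passed 10.16 at 6 h and 10.18 at 9 h and peaked at 10.78 at 12 h. It was at 10.26, 10.23 and 10.50 at 15, 18 and 21 h, fell to 9.57 at 27 h and was again at 10.25 at 45 h. The peak was 2.41-fold above the trough at 3 h. The set of 12 to 21 h averaged 10.44 ± 0.25 (SD, n = 4 arrays), above 9.93 ± 0.31 before it and 9.80 ± 0.20 after it. The steps of 0.59 from 9 to 12 h and -0.49 from 21 to 24 h fall on boundaries of the 12 h sets. With these sets as levels beside the cubic course, the adjusted p of the course was 0.511 (limma). Without the sets the calls were as follows. The course depended on time (adjusted p = 0.0304) and was curved (adjusted p = 0.036), and the linear change was -0.06 ± 0.19 (adjusted p = 0.831). Both calls were close to the threshold. Without the 12 h array the adjusted p was 0.0857 for the course and 0.0915 for the curvature, without the 30 h array 0.0529 and 0.0578, and the call of curvature was also lost without the 15, 18, 39 or 45 h array.

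The table also lists the same gene under its older symbol VEGF, with 2 further probes that the choice by symbol left out. One of them (ILMN_1693060) was detected on 0 arrays. The other (ILMN_1803882) was detected on all 16 and had the same shape as the VEGFA probe. It was lowest at 3 h (7.77) and highest at 12 h (8.84), had a second high at 21 h (8.41) and fell to 7.82 at 27 h. The Pearson r between the VEGFA and VEGF probes was 0.94 over the 16 arrays. By itself the VEGF probe passed neither the test of the course (adjusted p = 0.116) nor that of curvature (adjusted p = 0.132). The peak at 12 h was thus read by 2 probes from the same RNA, which checks the probe and not the culture or the array.

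HIF1A encodes the oxygen-regulated subunit itself, and it was read by 2 probes. The first (ILMN_2379788) stood at 9.93 at 0 h, was lowest at 6 h (9.21) and rose to 10.01, 10.03 and 9.97 at 15, 18 and 21 h. It dropped by 0.65 between 21 h and 24 h to 9.31, stayed between 9.31 and 9.50 to 39 h and was back at 9.93 at 45 h. The drop falls on the boundary between 2 of the 12 h sets. The linear change was -0.02 ± 0.21 (adjusted p = 0.941), and no course was found (adjusted p = 0.621). The calls changed once array sets or a step were allowed for. With the 12 h sets as levels beside the cubic course the adjusted p of the course was 0.0449 (limma). With a step between 21 and 24 h the linear change was 1.27 (limma, adjusted p = 0.0409). The sets were noticed in these same data, and the drop of this probe lies on the boundary that the step takes up. The p-values of these fits are therefore a description and not a test of a trend. The second (ILMN_1763260) stayed between 9.42 and 9.84 and had its highest value at 0 h and its lowest at 36 h. It fell by 0.29 ± 0.11 over 45 h (adjusted p = 0.0302), a call lost without the 0 h array (adjusted p = 0.0734) or the 36 h array (adjusted p = 0.0574), or with median scaling (adjusted p = 0.0636). The test of its whole course was not passed (limma, adjusted p = 0.133). With a step between 21 and 24 h its linear change was -0.18 (limma, adjusted p = 0.695). With a level for each 12 h set it was -0.68 (limma, adjusted p = 0.484). The difference between the probes ranged from -0.42 to 0.47 log2 units. It showed no relation with time that passed the test (Pearson r = 0.34, permutation p = 0.201, adjusted p = 0.201 over the 2 genes with a pair of tested probes; Spearman rho = 0.26, permutation p = 0.327, adjusted p = 0.327; n = 16). With the first and last arrays removed r was 0.25 (permutation p = 0.38, n = 14). A fall passed the threshold with the second probe only, and the test between the probes did not show that their trends differ.

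**Figure D2:**
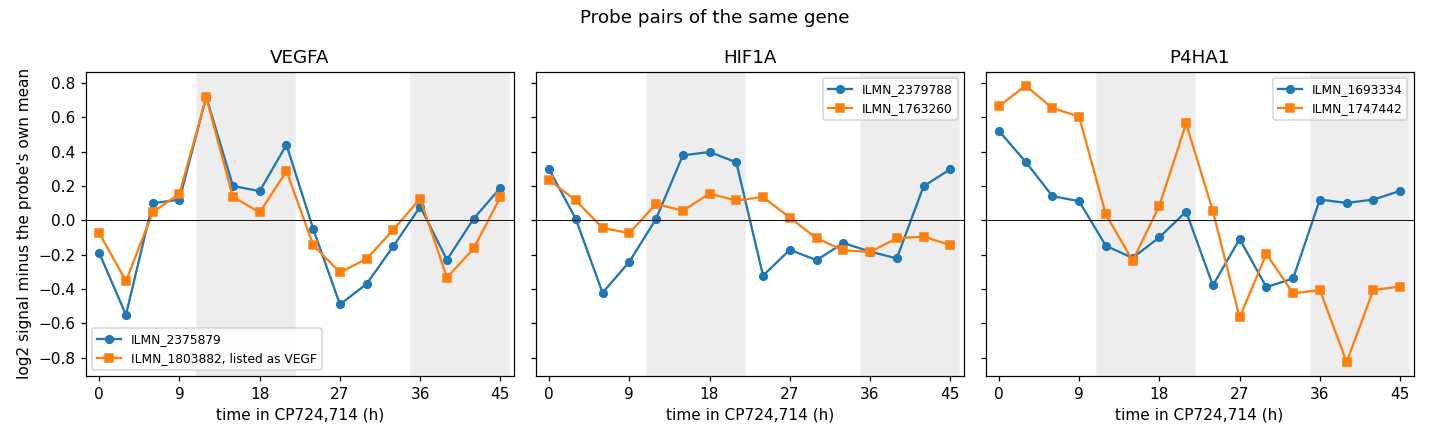
Log2 signal minus the probe's own mean over the 16 arrays (y axis) against time in CP724,714 in hours (x axis) for pairs of probes of the same gene, with 1 point per array and grey bands for every other 12 h set. The VEGFA and VEGF probes overlie each other with a peak at 12 h, the HIF1A probes are farthest apart at 24 h and 45 h, and the P4HA1 probes include arrays from 27 h on where ILMN_1747442 was not detected.

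P4HA1 encodes the catalytic subunit of the prolyl hydroxylase that modifies collagen, an enzyme distinct from the EGLN sensors. Its first probe (ILMN_1693334) was highest at 0 h (10.68) and fell to 10.50, 10.30 and 10.27 at 3, 6 and 9 h. It reached 9.94 at 15 h, 9.78 at 24 h and its lowest value of 9.77 at 30 h. Between 33 h and 36 h, at a boundary of sets, it rose by 0.46, and it then stayed between 10.26 and 10.33. The set of 24 to 33 h averaged 9.86 ± 0.13 (SD, n = 4 arrays) and that of 36 to 45 h averaged 10.29 ± 0.03, so the sets did not overlap. The course was curved (adjusted p = 0.00455), and the linear change was -0.25 ± 0.12 (adjusted p = 0.112). The linear estimate depended on the first and last arrays, at -0.08 (adjusted p = 0.693) without 0 h and -0.37 (adjusted p = 0.0335) without 45 h. With cyclic loess it was -0.33 (adjusted p = 0.0258), and with a step between 21 and 24 h it was 0.31 (adjusted p = 0.503).

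The second P4HA1 probe (ILMN_1747442) was dim, with signals of 196 to 337, and was detected on 8 arrays (0 to 12 h and 18 to 24 h). It stood between 6.74 and 6.92 from 0 to 9 h, and at 6.70 at 21 h, and lay between 5.31 and 5.75 on the last 4 arrays, on none of which it was detected. The linear change was -1.37 ± 0.24 (adjusted p = 0.000101), with background values on 8 of the 16 arrays, so its size is not exact. Because the last arrays give only an upper bound, the 45 h level was at least 1.48-fold lower than at 0 h, reckoned against the lowest detected signal of the 45 h array (6.24). Over all 16 arrays the difference between the P4HA1 probes rose with time (Pearson r = 0.77, permutation p = 0.00071, adjusted p = 0.00142; Spearman rho = 0.71, permutation p = 0.00315, adjusted p = 0.0063; n = 16). With the first and last arrays removed r was 0.79 (permutation p = 0.00098, n = 14). This relation rested on the arrays without detection. Over the 8 arrays on which both probes were detected, a comparison added after the data were seen, the difference lay between 3.51 and 3.87 and r was -0.17 (exact permutation p = 0.666, adjusted p = 0.666; Spearman rho = -0.24, exact permutation p = 0.582). Without background correction r over all arrays was 0.38 (permutation test, adjusted p = 0.207). No difference in course between the P4HA1 probes can therefore be read from these data. Whether the level read by the second probe came back after 36 h could not be seen, since it was not detected on those arrays.

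BNIP3 encodes a mitochondrial protein that marks mitochondria for removal by autophagy. Its probe (ILMN_1724658) moved little, between 11.88 at 21 h and 12.40 at 27 h and 45 h, a range of 1.44-fold. The set means were 12.08, 11.96, 12.21 and 12.22, with SDs of 0.07 to 0.13 (n = 4 arrays each). The 27 h value lay 0.29 above the fitted course, on the array with the highest median signal, and the part of that array in it was not tested. The linear change was 0.25 ± 0.11 (adjusted p = 0.0687), and no course was found (adjusted p = 0.229). It passed the threshold only without the 6 h (adjusted p = 0.0459), 9 h (0.0369) or 42 h (0.0485) array.

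CA9 encodes carbonic anhydrase IX, a membrane enzyme that helps export acid and is among the most used markers of hypoxia. Its probe (ILMN_1725139) was detected on 1 of the 16 arrays, at 12 h, with a detection p of 0.0497. The signals lay between 185 and 237 and the log2 values between 5.26 (33 h) and 6.17 (45 h), which is background, so they have no order to read. Apart from the 12 h array, just inside the threshold, CA9 RNA was not detected with this probe, at 0 h included.

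At 3 h, 9 of the 10 tested probes were lower than at 0 h, all but the dim P4HA1 probe, against 47.5% of all probes tested. The changes ran from -0.65 (NDRG1) to 0.12, with a median of -0.31, where the median of all probes was 0.01. At 6 h 8 of the 10 were lower, with a median of -0.33, against 48% of all probes with a median of 0.02. At 9 h 7 of the 10 were lower, with a median of -0.24, against 47.9% of all probes with a median of 0.02. EGLN3 fell furthest, to 2.15-fold below the first array at 6 h. HIF1A (ILMN_2379788) was 1.65-fold lower at 6 h, and ADM and EGLN1 were each 1.41-fold lower, while VEGFA was 1.22-fold higher. Of the other genes of the pathway, 40 of 79 were lower at 3 h. These are single arrays against a single 0 h array and carry no test, and all the changes share that first array.

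**Figure D3:**
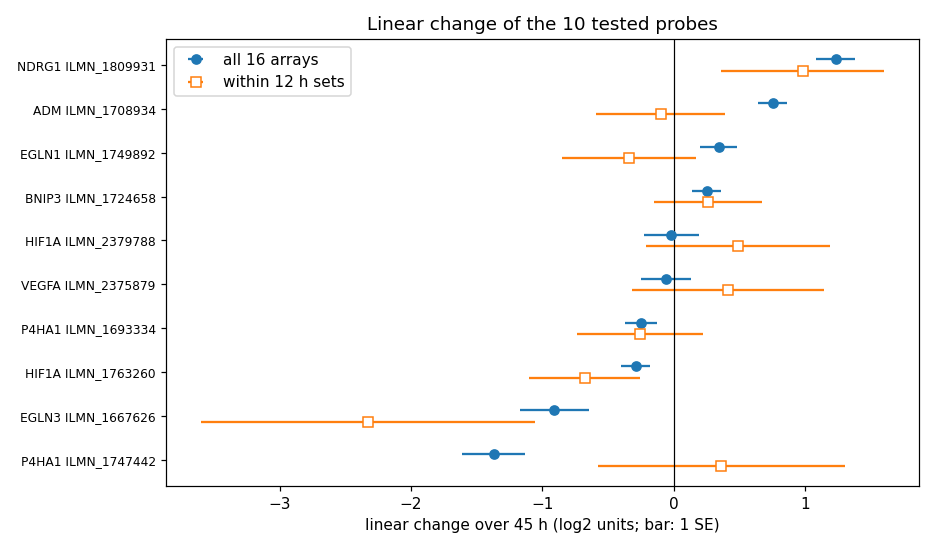
Linear change over 45 h in log2 units (x axis, bars 1 SE of the fit) of the 10 tested probes (y axis), from all 16 arrays (filled circles) and from a fit within the 12 h sets (open squares). Among the filled circles NDRG1 (1.23) and P4HA1 ILMN_1747442 (-1.37) mark the ends. The within-set bars are several times longer, and the within-set estimate of EGLN3 lies at -2.33.

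In a fit that allowed each 12 h set its own level and took 1 common slope in hours, 0 of the 10 probes kept a linear trend (limma, adjusted), against 0.900% of all probes tested, and 0 had an unadjusted p under 0.05. Each set spans only 9 h, so the errors of this fit were larger, 0.41 to 1.27 log2 units. The estimate for NDRG1 was 0.98 ± 0.62 (adjusted p = 0.497), in the direction of the whole course, and NDRG1 was higher on the last than on the first array in 3 of the 4 sets. EGLN3 was estimated at -2.33 ± 1.27 (adjusted p = 0.416), and within the first set it fell by 1.67 log2 units. ADM was estimated at -0.10 ± 0.49 (adjusted p = 0.955), as it fell by 0.35 and 0.10 within the first 2 sets and rose by 0.11 and 0.34 within the last 2. EGLN1, at -0.34 ± 0.51, had the opposite sign to its trend over all arrays.

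The other genes of the pathway were read from 7 lists of known HIF regulators and targets, 94 genes in all, of which 92 were on the array and 79 were tested by their probe with the highest mean. Of these 79, 27 rose, 22 fell and 30 did not pass the threshold, with a median linear change of 0.16. Over all 13108 genes tested the same way 27% rose and 22% fell, with a median of 0.06. No list gene had a linear trend within the 12 h sets after adjustment (limma, 10 at an unadjusted p under 0.05). Of the 49 genes with a call, 40 held it whichever array was left out.

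Among the oxygen sensors and HIF subunits 4 of 11 rose and 1 fell, where 27% of all genes tested rose and 22% fell. ARNT, the partner of the alpha subunits, rose by 0.79 ± 0.19 (adjusted p = 0.00219), and its other tested probe read 0.59 ± 0.25 (adjusted p = 0.0563). EGLN2 (PHD1) rose by 0.62 ± 0.09, and CITED2, which competes with HIF-1 alpha for the coactivators CBP and p300, by 0.82 ± 0.20. CREBBP, which encodes CBP, rose by 0.50 ± 0.10. The courses of CITED2 and CREBBP were curved (limma F-test of curvature, adjusted p = 0.0133 and 0.00525), each with its lowest value at 0 h. CITED2 read 11.07 at 0 h, 12.91 at 36 h and 12.19 at 45 h. CREBBP read 11.35 at 0 h, 12.25 at 33 h and 12.08 at 45 h. TCEB1, which encodes elongin C of the VHL complex, changed by -0.30 ± 0.07, a call lost without the 0 h array (adjusted p = 0.139). EPAS1, which encodes HIF-2 alpha, read 0.16 ± 0.09 (adjusted p = 0.183), and VHL read 0.12 ± 0.11 (adjusted p = 0.393), while another of its 3 probes (ILMN_2376625) rose by 0.44 ± 0.08 (adjusted p = 0.000236).

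Of the secreted and angiogenic factors 3 of 10 rose and 3 fell, near the 27% and 22% of all genes tested. The ephrin EFNA1 rose by 1.03 ± 0.15 and endothelin 1 (EDN1) by 0.97 ± 0.16, as ADM did. VEGFB rose by 0.16 ± 0.06, a call lost without the 0 h (adjusted p = 0.0505) or 3 h (0.0842) array and not made by its other 2 tested probes. ANGPTL4, a secreted inhibitor of lipoprotein lipase, changed by -1.57 ± 0.39 from 11.48 at 0 h to 8.48 at 45 h, while its other 2 tested probes read 0.20 ± 0.28 and -0.15 ± 0.31. VEGFC changed by -1.17 ± 0.18 and PDGFB by -0.52 ± 0.14. All 3 tested genes of acid-base balance had a linear rise. CA12, a carbonic anhydrase of the same membrane class as CA9, rose by 0.71 ± 0.15 from 7.75 to 9.04. The lactate exporter SLC16A3 had a linear change of 0.44 ± 0.10, but its course was curved (limma F-test of curvature, adjusted p = 0.00014). It dipped from 12.94 at 0 h to 12.08 at 18 h and ended near its start, at 13.04 at 45 h.

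Among the collagen-modifying enzymes P4HA2, the paralog of P4HA1, rose by 0.76 ± 0.09 (adjusted p = 5.75e-07), with its other probe at 0.82 ± 0.15. The lysyl hydroxylases fell, PLOD1 with -1.24 ± 0.15 and PLOD2 with -0.83 ± 0.14, and all 3 PLOD2 probes passed the threshold. The course of PLOD1 was curved (limma F-test of curvature, adjusted p = 0.0082), with a high of 12.98 (6 h) and a low of 11.66 (30 h). PLOD1 then came partly back, and its last array read 12.17 against 12.76 on the first. The fitted fall of PLOD1 therefore exceeds the difference between its first and last arrays. In the mitochondrial list MXI1, an antagonist of MYC, rose by 1.40 ± 0.17, and 2 of its 3 probes made the call. FAM162A read 0.32 ± 0.13 and HIGD1A -0.43 ± 0.14, both past the threshold. The FAM162A call was lost without any one of 9 arrays (12, 15, 21, 27, 33, 36, 39, 42 and 45 h, adjusted p up to 0.11), and that of HIGD1A without 45 h (adjusted p = 0.161).

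Glucose uptake and glycolysis was the list with the most falls, 13 of 21, with 3 rising and a median of -0.34. Of all genes tested 22% fell and 27% rose, with a median of 0.06. The falling genes were led by ENO2 (-2.03 ± 0.19), the adenylate kinase AK3L1 (-1.26 ± 0.14) and PFKP (-1.04 ± 0.15), and PGK1 changed by -0.81 ± 0.12. ENO2, AK3L1 and PFKP had curved courses (limma F-test of curvature, adjusted p = 0.0392, 0.000679 and 8.26e-05). PFKP fell from 12.98 at 0 h to 11.03 at 15 h and read 11.61 at 45 h. AK3L1 fell from 12.15 at 0 h to 10.49 at 36 h and read 10.78 at 45 h. ENO2 was lowest at 45 h. LDHA changed by -0.28 ± 0.08, which did not hold without the 45 h array (-0.12, adjusted p = 0.156). The rising genes were the hexokinase HK2 (1.85 ± 0.18), PFKFB3 (1.45 ± 0.21), which makes an activator of phosphofructokinase, and the glucose transporter SLC2A1 (0.77 ± 0.11). Each dipped first, so these fitted changes exceed the difference between 0 h and 45 h. HK2 read 9.40 at 0 h, 8.44 at 6 h and 10.67 at 45 h. At 0, 3 and 45 h PFKFB3 read 11.93, 10.71 and 12.50, and SLC2A1 read 12.80, 12.35 and 13.38. The list of feedback, growth and stress genes, to which NDRG1 belongs, had 11 of 22 rising and 2 falling, with a median of 0.41. The shares over all genes tested were again 27% and 22%. The repressor BHLHB3 rose by 1.29 ± 0.18, the lipoprotein receptor VLDLR by 1.23 ± 0.11 and the nuclear receptor RORA by 1.15 ± 0.23. Of the 3 tested RORA probes 2 made the call. The probe without it (ILMN_1805614), detected on all 16 arrays, read 0.26 ± 0.16 (limma, adjusted p = 0.201). TMEM45A (-1.49 ± 0.10) and the transferrin receptor TFRC (-0.69 ± 0.17) fell.

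**Figure D4:**
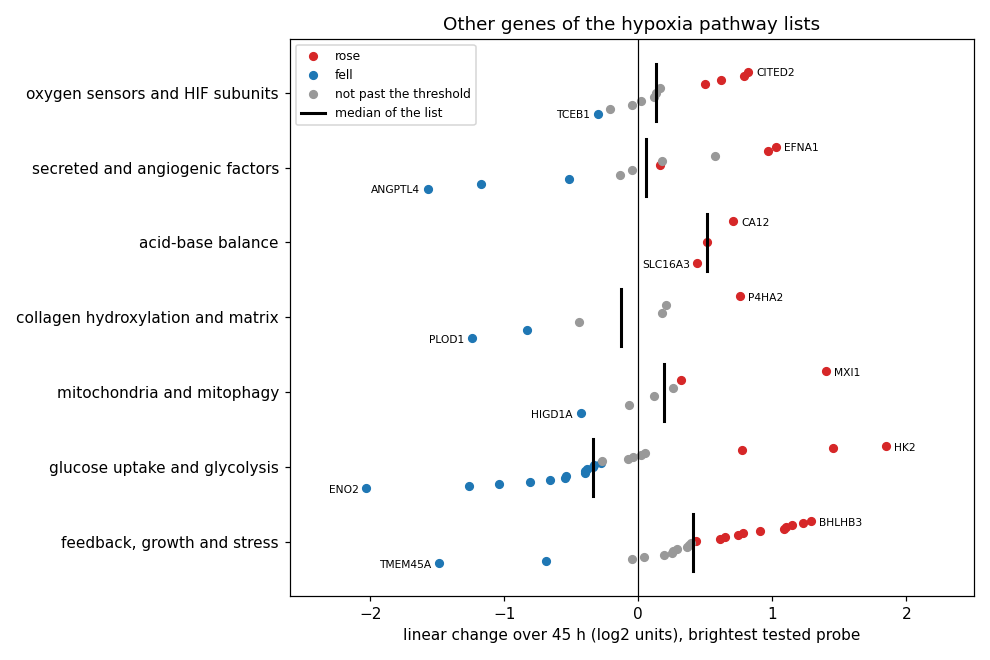
Linear change over 45 h in log2 units (x axis) of the 79 tested genes of the 7 pathway lists (rows), each by its tested probe with the highest mean, coloured by whether it rose, fell or did not pass the adjusted threshold, with a black bar at the median of each list. Most glycolysis genes lie left of 0 and most feedback genes right of it, with HK2 (1.85) and ENO2 (-2.03) at the ends.

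The probes of other genes with the most similar course were named by Pearson r over the 16 arrays, among probes detected on all of them. For NDRG1 these were LOC90693 (0.96) and the mineralocorticoid receptor NR3C2 (0.96). For ADM they were SMAD6 (0.94), PRKAG2 (0.94) and TST (0.93). SMAD6 encodes an inhibitor of BMP signalling, and PRKAG2 a subunit of the energy sensor AMPK. For VEGFA the nearest were RASD2 (0.90), SLC25A37 (0.86) and DC-UbP (0.86), and for EGLN3 they were MGC13114 (0.92), CD276 (0.90) and TIMM23 (0.88). For EGLN1 they were SERP1 (0.92), TP53RK (0.92) and C5orf3 (0.91), and for P4HA1 (ILMN_1693334) ABHD3 (0.90), SLC39A10 (0.87) and MANEAL (0.87). For BNIP3 they were OXCT1 (0.89), MGST3 (0.87) and NDUFB5 (0.85). The values were lowest for HIF1A (ILMN_2379788), with SCO2 (0.85) and FTSJ3 (0.83). These are the highest values among many probes over 16 arrays and are a description of likeness only.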

How the data were processed

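Total RNA of SUM-225 cells at 16 time points was labelled with biotin and hybridised to Illumina bead arrays, 1 per time point. The deposited table gives a linear signal intensity per probe and array, without background subtraction or normalization by the authors, and a detection p-value. The study's methods describe quantile normalization, a later step, and name the Illumina human Ref8v2 array for its time series, a version that the labels do not repeat. Samples were grouped by the time in their labels.

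Signals were processed with neqc of limma 3.58.1 in R 4.3.3 (background correction from the detection p-values, offset 16, quantile normalization, log2). The offset reduces fold changes of dim probes. The 16110 probes that reached a detection p under 0.05 on 3 or more arrays were fitted with a cubic polynomial in hours (lmFit, eBayes with trend). The F-test of its 3 coefficients gave the course, the first-order coefficient the linear change over 45 h, and the F-test of the others the curvature. Tests were two-sided, with Benjamini-Hochberg adjustment over all probes tested at 0.05. The fit was tested on simulated data. The number of arrays limits the precision.

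Differences between probes of a gene were tested by two-sided permutation (100000 resamples). Pathway genes are given by the tested probe with the highest mean. Named are all probes of the 9 genes, up to 3 largest rises and falls past the threshold in each list, EPAS1, ARNT, VHL, SLC2A1, LDHA and PGK1, and the 3 most similar probes of each gene. Some genes that this rule selects are not reported here. The probe listed as VEGF and PLOD, ARNT and other second probes were added after their values were seen. The members and lists were chosen with earlier results of these data known. Alternatives were other background, offset, scaling, filter, array weights, polynomial degree, a step between 21 and 24 h, the 12 h set as a factor, another probe per gene and each array left out, and, added after the data were seen, only arrays on which both probes of a gene were detected. The 12 h sets, which share the boundary between 21 and 24 h with the step, were also noticed in the data. Python 3.11.15 with matplotlib 3.10.9 drew the figures.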

Additional observations from a re-analysis of the deposited data

How the results depend on the processing

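Of 418 values recomputed under the alternatives, 363 kept both sign and call (counts within 1.5 times), 24 lost the threshold, 5 gained it, 21 changed sign and 5 counts moved. Many of these values come from fits with 1 array left out. Apart from those fits, 109 linear changes of single probes were recomputed. Of these, 85 kept sign and call, 11 lost the threshold, 1 gained it and 12 changed sign. The counts moved only with array sets or a step as terms. The boundaries of these terms were noticed in the same data, so calls made with them are a description. With the 12 h set beside the cubic course, the count of member probes that depended on time was 2 against 6, EGLN3 from the 6 and HIF1A ILMN_2379788, which was not among them. With a step between 21 and 24 h, 2 member probes (NDRG1 and HIF1A ILMN_2379788) had a linear trend in place of 6 and 21 pathway genes in place of 49, and with the 12 h set as a factor 0 had one in either. With that factor the linear change was -0.10 for ADM, -0.34 for EGLN1, 0.49 for HIF1A ILMN_2379788, 0.36 for P4HA1 ILMN_1747442 and 0.41 for VEGFA. With the step it was -0.43 for BNIP3, 0.15 for EGLN3, 1.27 for HIF1A ILMN_2379788 (limma, adjusted p = 0.0409), 0.31 for P4HA1 ILMN_1693334 and 0.81 for VEGFA. With array weights it was 0.02 for HIF1A ILMN_2379788 and 0.19 for VEGFA. Without background correction the r between time and the P4HA1 probe difference was 0.38, and over only the arrays on which both probes were detected, added after the data were seen, it was -0.17. With 1 array left out, the counts were 5 to 6 for the course, 4 to 7 for the linear trend, 2 to 4 for the curvature and 46 to 52 for pathway genes. The linear change then ran from -0.16 to 0.10 for HIF1A ILMN_2379788 and from -0.26 to 0.06 for VEGFA, while those of NDRG1, ADM and P4HA1 ILMN_1747442 passed the threshold throughout. The cause was not tested. No paired analysis was possible because every time was measured on 1 array only. Probes near background, CA9 and P4HA1 ILMN_1747442, are limited by their signal.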
